A study of Mus musculus with 67 samples.

Results

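Resting B cells and resting T cells of mice that had not been immunized were compared gene by gene. The members were the 6 unstimulated libraries labelled naive, 3 of B cells and 3 of T cells, chosen by those labels from the 60 libraries of the series. They came from C57BL/6 mice with no immunization, no activation, no interferon beta (IFNb) and no antibody to Btla, so "naive" here describes the animal and not a sorted cell subset. The cells came from spleen and lymph nodes, and B cells or CD4+ T cells were purified with commercial enrichment kits. The wider study used these cells as the unstimulated arm of an experiment on Btla, an inhibitory receptor, in cells activated through their antigen receptor for 18 hours, with parallel sets from mice with experimental autoimmune encephalomyelitis (EAE). The labels do not say whether the unstimulated cells spent those hours in culture, or whether replicates came from separate animals, and the p-values therefore measure only the spread between these samples.

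B cells recognize antigen through surface immunoglobulin, whose signal leaves the membrane through Cd79a and Cd79b, whereas T cells use a T cell receptor coupled to the CD3 chains. Both receptors carry tyrosine motifs that are phosphorylated by Src family kinases and then bind Syk or Zap70, after which Tec kinases, adaptors, phospholipase C gamma and protein kinase C pass the signal on. A resting lymphocyte recirculates between blood and lymphoid organs and is held ready, and each lineage fills the same signaling positions largely with its own members of the same gene families.

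The B libraries ranged from 29.4 to 39.4 M estimated counts and the T libraries from 7.74 to 21.6 M, so low levels were measured less precisely in T cells. Reads are not independent molecules, and counting intervals given below cover counting error only. Values per library are CPM, counts scaled for sequencing depth and library composition, and differences are log2 B minus T with a standard error (SE), tested with edgeR's quasi-likelihood test. Genes are termed called where the p adjusted by Benjamini and Hochberg over all genes tested was below 0.05. In bulk RNA, fewer cells of a type and less RNA per cell cannot be told apart. B and T libraries were also counted against slightly different transcript sets, so cell type and counting set cannot be told apart for genes that the sets annotate differently.

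Checks of the libraries touch the results below. The Y-linked gene Ddx3y was at 237, 241 and 1.29 CPM in B replicates 1, 2 and 3 and at 1.04, 0.604 and 0.519 CPM in the T replicates. Eif2s3y gave 114, 118 and 1.01 CPM against 0.13, 0 and 0.283 CPM, and Kdm5d gave 210, 202 and 32.1 CPM against 38.0, 35.3 and 35.3 CPM. B replicates 1 and 2 thus stood apart from the other 4 libraries, and all 4 Y-linked genes tested were called higher in B cells. The study used mice of both sexes and the labels used here give none per library, so the animals may differ in sex between these libraries, and no fit had sex as a term. With B replicate 3 alone against the 3 T libraries, 51.2% of 16209 genes were called in place of 63.7% of 15826, 1 of the 4 Y-linked genes was still called, and the difference of Kdm5d moved from 2.03 to -0.15. The spread in that fit came from the T libraries alone, with the lone B library assumed to vary like them, so its counts are a description.

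Transcripts of CD8, the coreceptor of cytotoxic T cells, were abundant in the libraries labelled CD4+ T cells. Cd8b1 was at 664, 650 and 764 CPM and Cd8a at 301, 284 and 350 CPM, beside 510, 594 and 492 CPM for Cd4. Per length, the mean was 473 TPM (the measure scaled for both transcript length and depth) for Cd8b1, 121 TPM for Cd8a and 176 TPM for Cd4. In the B libraries none of the 3 genes exceeded 3.77 CPM. Of 11 markers of natural killer (NK) and cytotoxic cells, 10 were called higher in T cells, with summed levels of 251 to 286 CPM against 14.3 to 16.2 CPM in B cells, and of 6 markers of gamma delta and NKT cells all 6 were, at 45 to 50.7 against 1.35 to 2.05 CPM. Much of the sum of the 11 came from Klrd1. Its mean in T cells, scaled over all 60 libraries, was 152 CPM, beside 37.6 for Nkg7 and 24.8 for Ccl5. The T cell group is therefore called by its label, and results on T cells below describe a population that held CD8 transcripts.

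Each cell type was also searched for markers of the other. The 15 B cell markers summed to 10300 to 11000 CPM in B libraries and 96.5 to 154 CPM in T libraries, with the highest sum in T replicate 1. The 16 T cell markers summed to 7660 to 7860 CPM in T libraries and 92.3 to 98.7 CPM in B libraries. All 15 and all 16 were called in the direction of their cell type, at median differences of 6.67 and -8.89. The part of these residual transcripts in differences near those sizes was not tested.

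**Figure D1:**
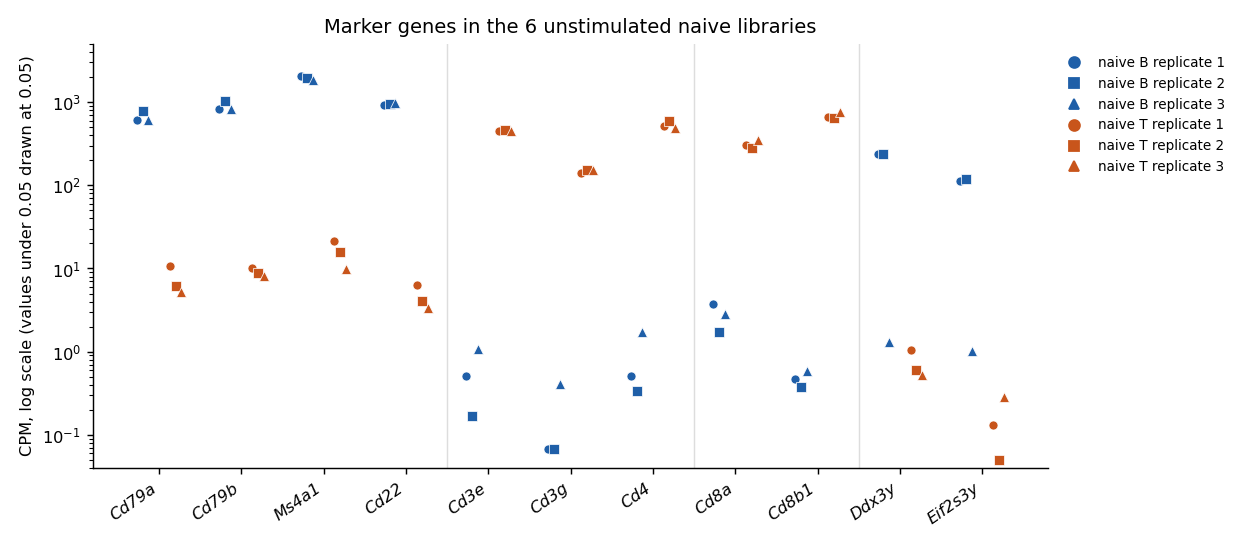
Level in each of the 6 libraries, in CPM on a log axis, of markers of B cells, T cells and CD8 T cells and of Y-linked genes, with colors for the cell types and shapes for the replicates. Values under 0.05 CPM are drawn at 0.05. Lineage markers separated the B from the T libraries, Cd8a and Cd8b1 lay beside Cd4 in all 3 T libraries, and the Y-linked genes were high in B replicates 1 and 2.

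Across the transcriptome, resting B and T cells differed at most expressed genes. Of 15826 genes tested, 10074 (63.7%) were called, 5214 higher in B cells (32.9% of genes tested) and 4860 higher in T cells (30.7%). Differences of at least 2-fold were found at 2313 genes in the B direction (14.6%) and 2411 in the T direction (15.2%), and of at least 16-fold at 572 (3.61%) and 507 (3.2%). At the other end, the 95% interval of the difference lay within 2-fold for 7738 genes (48.9%). The 3 B values and the 3 T values did not overlap for 10929 genes (69.1%). These percentages are the background against which the counts of gene families and lists below should be read. Of the 411 genes that the naming rule chose, 39 overlap exons of a same-strand neighbor (Lck, Lat, Cd247, Cd74 and Satb1 among them) and 104 those of an opposite-strand one. For these the division of reads between genes is uncertain, since the strand setting of the counting is not given in the sources used here.

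The genes with the largest differences included known markers of both lineages beside 2 Y-linked genes. Among protein-coding genes of at least 50 CPM, the 10 largest in the B direction included Fcrla (an Fc receptor-like protein of B cells), Bank1 (a scaffold of B cell receptor signaling), Fcmr (the receptor for IgM), Siglecg (a sialic acid-binding inhibitory receptor), Cd36 (a scavenger receptor), Klhl14, Btk and the calcium channel gene Cacna1i, with Ddx3y and Eif2s3y described above. Fcrla was at 241, 306 and 267 CPM in B cells and at 0.26, 0.518 and 0.33 CPM in T cells, a difference of 9.49 ± 0.17. For Cacna1i, with 3 counts in the T libraries together, the ratio of B to T levels was 982 (95% counting interval 336 to 4760). The 10 largest in the T direction included Cd8b1, Tdrp, Bcl11b (a factor that maintains T cell identity), Themis (a regulator of T cell receptor signal strength), Cd3g, Cd3e, the channel genes Cnga1 and Kcna2, and Cd4. Tdrp, at 293, 324 and 304 CPM against 0.101, 0.237 and 0.581 CPM in B cells, differed by -9.83 ± 0.21. No B value overlapped a T value for any of these 20 genes, as the rule that chose them required.

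Ranked per length, the most abundant transcripts at least 4-fold higher in B cells were led by Cd74, the invariant chain of MHC class II, with a mean of 2250 TPM against 30.3 TPM in T cells. Ptpn6, the phosphatase Shp-1 recruited by inhibitory receptors, was at 1350 against 218 TPM, Fcmr at 1050 against 3.27 TPM, Cd79b at 898 against 7.65 TPM, Cd22 at 808 against 2.61 TPM and Ms4a1 (CD20) at 683 against 5.61 TPM. The rank of Ptpn6 depended on the scaling for length. In CPM scaled over all 60 libraries, its B cell mean was 230, against 790 for Fcmr, 846 for Cd79b, 898 for Cd22 and 1840 for Ms4a1. In T cells, the chromatin organizer Satb1 had a mean of 2110 TPM against 388 TPM in B cells, Il7r (the interleukin-7 receptor alpha chain) 1480 against 18.1 TPM, Ms4a4b 1460 against 59.1 TPM, Tcf7 848 against 2.26 TPM, the adaptor Fyb 772 against 7.39 TPM and Lef1 739 against 20 TPM. The list also held Olfr1033 in the T direction, annotated as an odorant receptor gene, at 6510 against 1220 TPM. On the same CPM scale its T cell mean was 494, against 3320 for Satb1.

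The antigen receptors themselves came first among functional groups. Immunoglobulin genes took 1.3 to 1.48% of counts in B libraries and 0.06 to 0.08% in T libraries, and T cell receptor genes 0.245 to 0.248% in T libraries and at most 0.001% in B libraries. Of 190 immunoglobulin variable segments tested, all 190 were called higher in B cells, and all 100 T cell receptor variable segments were called higher in T cells. Such segments could pass the filter on low counts through the cell type that expresses them, so these counts were largely fixed in advance. Of immunoglobulin variable pseudogenes, 14 were called higher in B cells, 1 higher in T cells and 1 not called. Of immunoglobulin constant genes, 11 were called higher in B cells and 1 was not called. Ighd, the IgD heavy chain of mature resting B cells, was at 2840, 3530 and 3140 CPM in B cells and at 32.1, 28.3 and 15.3 CPM in T cells (7.04 ± 0.24). Ighm, the IgM heavy chain, was at 5470, 6080 and 5040 CPM in B cells but at 657, 647 and 562 CPM in T cells, and its difference of 3.15 ± 0.08 was less than that of Ighd. Per length, Ighm in T cells had a mean of 419 TPM and Ighd 15.9 TPM. The constant segments Trbc2 and Trac were at 866, 837 and 856 CPM and at 468, 471 and 467 CPM in T cells, and no B library exceeded 1.26 CPM for either. The joining segment Traj22, at 5.32, 3.37 and 3.49 CPM in T cells, had no count in a B library and was at least 133-fold higher in T cells, taking 3 counts over the B group as the floor.

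All 6 signaling subunits with immunoreceptor tyrosine motifs were called, 2 in the B and 4 in the T direction. Cd79a was at 613, 772 and 606 CPM in B cells and at 10.6, 6.13 and 5.19 CPM in T cells (6.62 ± 0.20), and Cd79b differed by 6.67 ± 0.12. Cd3e was at 0.504, 0.169 and 1.09 CPM in B cells and at 445, 458 and 450 CPM in T cells (-9.47 ± 0.24). Cd3g and Cd3d, its partners, differed by -9.49 ± 0.24 and -6.02 ± 0.10. Cd247, the zeta chain, was the exception in size: B libraries held 33.6, 27.6 and 29.1 CPM against 277, 282 and 297 CPM (-3.25 ± 0.08). The transcript that made up most of Cd247 also differed. Cd247-206 took 67.4, 72.2 and 62.5% of the gene's TPM in B cells and 5.07, 9.42 and 6.3% in T cells, where Cd247-201 took 77, 76.8 and 80.9%.

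Src family kinases, which start the signal, split into a B and a T set, with 4 of 8 called higher in B cells, 2 higher in T cells and 2 not called. Lyn, the kinase of both activating and inhibitory B cell signaling, was at 518, 534 and 511 CPM in B cells and at 8.43, 10.1 and 5.95 CPM in T cells (6.05 ± 0.14). Blk differed by 7.02 ± 0.17, and Fgr, known best from myeloid cells, by 6.06 ± 0.46 from a B cell level of 5.75 to 8.37 CPM. Lck, which phosphorylates the CD3 chains, was at 258, 256 and 271 CPM in T cells and at 9.68, 12.1 and 10.9 CPM in B cells (-4.59 ± 0.08). Fyn differed by -1.38 ± 0.08, with 42.0 to 51.3 CPM in B cells against 116 to 130 CPM. Yes1 (0.22 ± 0.18) and Src (0.55 ± 0.59) were not called, and Src was at no more than 0.913 CPM in any library.

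The next position showed the same exchange of paralogs. Syk was at 664, 739 and 628 CPM in B cells and at 12.5, 5.35 and 5.66 CPM in T cells (6.57 ± 0.22). Zap70, its T cell counterpart, was at 47.4, 40.1 and 44.4 CPM in T cells and at 0.203 to 0.303 CPM in the B libraries (-7.36 ± 0.16). Among Tec kinases, Btk, which B cell development requires, differed by 7.94 ± 0.23. Txk was higher in T cells (-4.32 ± 0.09) and Tec higher in B cells (1.26 ± 0.08), while Bmx fell below the filter on low counts and was not tested.

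Adaptors gave 8 calls in the B and 7 in the T direction among 17 tested, with Grap and Gab2 not called and Sh2d1b1 below the filter. Blnk, which links Btk to phospholipase C in B cells, was at 383, 392 and 390 CPM in B cells and at 7.27, 6.99 and 3.35 CPM in T cells (6.18 ± 0.19). Its T cell counterparts Lcp2 (SLP-76) and Lat differed by -7.23 ± 0.24 and -8.18 ± 0.13, with Lcp2 at 323, 364 and 366 CPM in T cells. Lat2 was higher in B cells (5.29 ± 0.28) and Lat in T cells. Themis2 was higher in B cells (6.23 ± 0.12) and Themis in T cells (-9.58 ± 0.18), and Skap2 in B cells (1.55 ± 0.10) and Skap1 in T cells (-7.01 ± 0.14). Pik3ap1 (BCAP), an adaptor that recruits phosphoinositide 3-kinase, differed by 5.68 ± 0.08, and Sh2d1a (SAP), the adaptor of SLAM receptors, by -7.82 ± 0.22. Grb2, shared by many receptors, was 83.5 to 94.6 CPM in B cells and 38.1 to 44.5 CPM in T cells (1.09 ± 0.08).

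Phospholipase C gamma and protein kinase C genes were all called, 4 in each direction. Plcg2 was at 231, 241 and 229 CPM in B cells and at 4.67, 3.11 and 1.98 CPM in T cells (6.33 ± 0.17), whereas Plcg1 was at 28.5, 30 and 30.8 CPM in B cells and at 240, 262 and 250 CPM in T cells (-3.07 ± 0.06). T cells thus held little of the B cell enzyme, and B cells retained a measurable level of the other. Prkcb, the isoform that activates NF-kB in B cells, differed by 1.88 ± 0.05, and its T cell counterpart Prkcq (PKC theta) by -4.07 ± 0.08. Prkch differed by -7.99 ± 0.14, Prkca by -1.12 ± 0.05, and Prkcd and Prkce by 1.45 ± 0.08 and 1.88 ± 0.08.

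Farther from the receptor, members of both directions were again found. Among 15 genes of the Ras and calcium branch, 3 were called higher in B cells and 8 higher in T cells, and for 8 of the 15 the 95% interval lay within 2-fold, against 48.9% of all genes. The exchange factor Rasgrp3 was an exception at 446, 456 and 486 CPM in B cells and 5.84, 2.42 and 2.78 CPM in T cells (7.12 ± 0.18), while Rasgrp1, the main Ras activator of T cells, was at 265, 273 and 261 CPM against 588, 578 and 593 CPM (-1.14 ± 0.05). The calcium sensor Stim1 and the channel Orai1 were higher in T cells (-1.61 ± 0.05 and -1.33 ± 0.13). Nfatc3 was at 885, 955 and 866 CPM in B cells and at 922, 951 and 952 CPM in T cells, with overlapping values and a 95% interval of -0.18 to 0.05. Nfatc1 had an interval of -0.05 to 0.23.

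In the group of NF-kB signaling genes, 9 of 12 genes were called higher in B cells and 2 higher in T cells, with a median of 0.55 against about 0 over all genes tested. Rel, the NF-kB subunit c-Rel, was at 674, 721 and 683 CPM in B cells and at 184, 163 and 152 CPM in T cells (2.06 ± 0.07). Malt1, a protease of this pathway, differed by 1.33 ± 0.06 and Nfkb1 by 0.99 ± 0.06. The called difference of Bcl10 (0.22 ± 0.08) was small. It was not called without any 1 of B replicate 2 (0.15) or T replicates 1, 2 or 3 (0.21 to 0.22). Rela was not called (-0.07 ± 0.09). The inhibitor of NF-kB signaling Tnfaip3 (A20) was higher in T cells (-1.07 ± 0.07), as was Traf1 (-1.43 ± 0.06).

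Of 12 genes of Vav-type exchange factors and the phosphoinositide 3-kinase pathway, 4 were higher in B cells, 5 higher in T cells and 3 not called. Shares of all genes tested were 32.9% in the B and 30.7% in the T direction. Vav2 (3.33 ± 0.17) and the lipid phosphatase Inpp5d (SHIP-1, 1.94 ± 0.09) were higher in B cells. The kinase subunits Pik3cd (-1.24 ± 0.07), Pik3r1 (-1.18 ± 0.05) and Pik3r5 (-3.30 ± 0.08) were higher in T cells. Vav1 and Vav3 were not called, at 0.12 ± 0.06 and 0.15 ± 0.10.

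**Figure D2:**
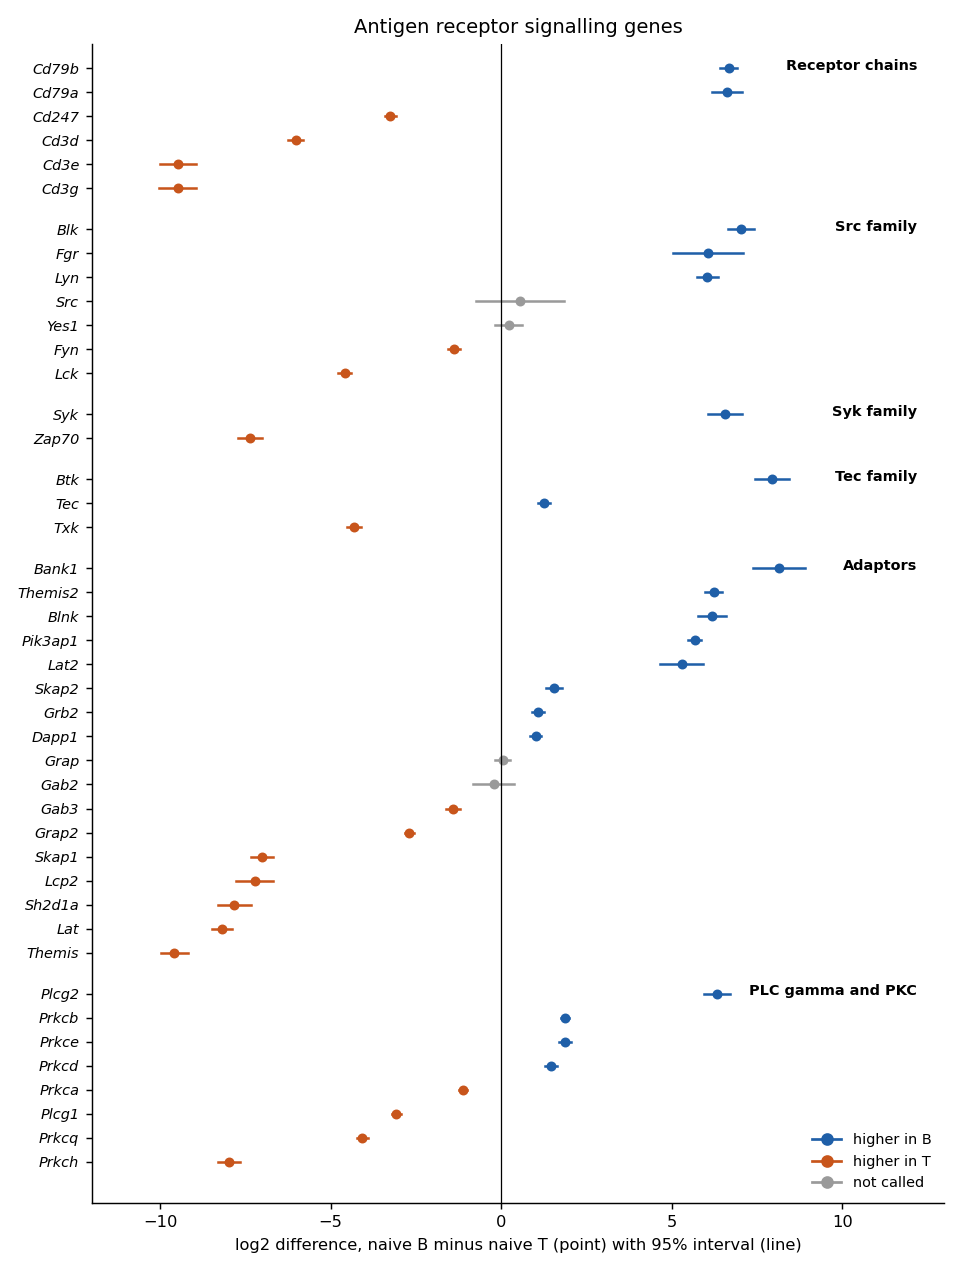
Difference between resting B and T cells on the log2 scale (B minus T, points) with its 95% interval (lines) for antigen receptor subunits, kinases, adaptors, phospholipase C gamma and protein kinase C genes, grouped by position in the pathway. Each group with several genes holds members on both sides of 0, and Src, Yes1, Grap and Gab2 were not called.

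Btla, the receptor the study is about, was higher in resting B cells. It was at 644, 670 and 640 CPM in B cells and at 61.2, 61.9 and 67.3 CPM in T cells, a difference of 3.35 ± 0.06 (edgeR adjusted p = 1.7e-11). Its ligand Hvem, encoded by Tnfrsf14, ran the other way, at 8.91, 6.59 and 7.5 CPM in B cells and at 21.2, 22.1 and 18.6 CPM in T cells (-1.42 ± 0.14, adjusted p = 5.23e-06). Neither gene's B values overlapped its T values, as was so for 69.1% of all genes tested. Per length, mean levels in B cells were 218 TPM for Btla and 10.7 TPM for Tnfrsf14, and in T cells 18.6 and 29.4 TPM. The order of the 2 genes thus differed between the cell types when scaled for length. In CPM, Btla was above Tnfrsf14 in every library of both cell types.

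Other surface regulators were listed by the lineage they are known from, so the direction of most calls was largely fixed in advance. Of 19 coreceptors, Fc receptors and inhibitory receptors known from B cells, 16 were called higher in B cells, with a median of 5.08. Cd22, an inhibitory receptor of the B cell receptor, was at 929, 949 and 964 CPM in B cells and at 6.36, 4.06 and 3.35 CPM in T cells (7.81 ± 0.14). Fcrl1, Cd24a and Cd38 differed by 7.09 ± 0.16, 7.34 ± 0.17 and 5.14 ± 0.13. Cd5, which T cells and the B-1 subset carry, was higher in T cells (-5.71 ± 0.19), and Cd300a was not called (-0.23 ± 0.12). Of 17 accessory receptors known from T cells, 10 were called higher in T cells and 4 higher in B cells, the latter by less than 2-fold each. Thy1, at 194, 197 and 212 CPM against 1.48, 1.18 and 1.51 CPM, differed by -7.16 ± 0.10, and Cd6 by -8.87 ± 0.25. The SLAM family members Ly9 (0.59 ± 0.06) and Slamf6 (0.26 ± 0.06) were slightly higher in B cells, and Cd84, Cd48 and Slamf1 were not called.

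Among 31 costimulatory and coinhibitory receptors and ligands, 9 were higher in B cells and 19 higher in T cells (median -1.59). Icosl was at 292, 285 and 321 CPM in B cells and at 12.7, 8.2 and 12.4 CPM in T cells (4.75 ± 0.13), whereas its receptor Icos was at 102, 109 and 99.6 CPM in T cells and at 0.37 to 0.473 CPM in B cells (-7.98 ± 0.12). Cd86, a ligand of CD28, was higher in B cells (3.62 ± 0.11) and Cd28 in T cells, at 552, 652 and 565 CPM against 1.51, 2.0 and 2.78 CPM (-8.10 ± 0.16). Cd40, which receives T cell help, was at 82.3, 74.9 and 84.1 CPM in B cells (2.55 ± 0.10). The receptors for the survival factor BAFF and its relative APRIL, Tnfrsf13c and Tnfrsf13b, were higher in B cells by 6.22 ± 0.16 and 3.51 ± 0.08. Vsir (VISTA), Cd226 and Cd96 were higher in T cells (-5.03 ± 0.08, -7.95 ± 0.11 and -7.71 ± 0.15). Cd274 (PD-L1), at 51.6, 49.6 and 50.2 CPM against 52.6, 38.6 and 56.5 CPM, was not called (95% interval -0.24 to 0.30).

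Ptprc, which encodes the phosphatase CD45 on all lymphocytes, differed little as a gene but clearly in its exons. Gene levels were 2240, 2010 and 2200 CPM in B cells and 2630, 2760 and 2830 CPM in T cells, a called difference of -0.35 ± 0.06. Exons 4, 5 and 6, known as A, B and C, are spliced in or out, and B cells are known for the long form B220. The 3 exons are shown because the coding forms compared here are told apart by them, read 5′ to 3′ on the minus strand with GENCODE M21 coordinates on GRCm38, at chr1:138122456-138122584, chr1:138120020-138120166 and chr1:138117754-138117894. Their lengths of 129, 147 and 141 bases are each divisible by 3, so each can be skipped without a shift of the reading frame.
Ptprc exon 4 (A): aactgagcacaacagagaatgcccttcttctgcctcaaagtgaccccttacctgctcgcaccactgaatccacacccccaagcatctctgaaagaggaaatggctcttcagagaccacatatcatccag
Ptprc exon 5 (B): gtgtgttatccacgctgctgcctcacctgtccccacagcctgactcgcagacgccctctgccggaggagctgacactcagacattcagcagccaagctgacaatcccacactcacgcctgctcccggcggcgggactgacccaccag
Ptprc exon 6 (C): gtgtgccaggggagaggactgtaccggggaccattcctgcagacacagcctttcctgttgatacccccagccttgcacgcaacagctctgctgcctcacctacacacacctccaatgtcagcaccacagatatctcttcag

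Coding transcripts of Ptprc that contain exon A took 69.8, 69.9 and 68.0% of the TPM of coding transcripts in B cells and 17.2, 15.5 and 16% in T cells. Those with none of the 3 exons took 1.42, 1.6 and 1.62% in B cells and 25.2, 30.4 and 25.4% in T cells. The forms that hold exon B alone took 28.8, 28.5 and 30.4% against 57.6, 54.1 and 58.6%. The form with exons A and C, a partial model of 5 exons, took 42.6, 42.0 and 38.3% against 6.46, 7.66 and 6.85%, and was thus the largest part of the share with exon A in B cells. Forms with all 3 exons took 27.2, 27.8 and 29.7% against 10.7, 7.85 and 9.13%. For each of these 5 shares, the B and the T libraries did not overlap. The shares are parts of 1 total, so they are not separate results. How often transcript shares of other genes did not overlap was not counted. Shares with exon B were 56.0 to 60.1% in B cells and 61.9 to 68.3% in T cells. The annotated coding models include partial ones, such as that A and C model and a model with exon B and 8 exons, beside models of 30 and 33 exons, and the authors' program divided reads among them, so the shares are estimates for this annotation and were given no test.

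**Figure D3:**
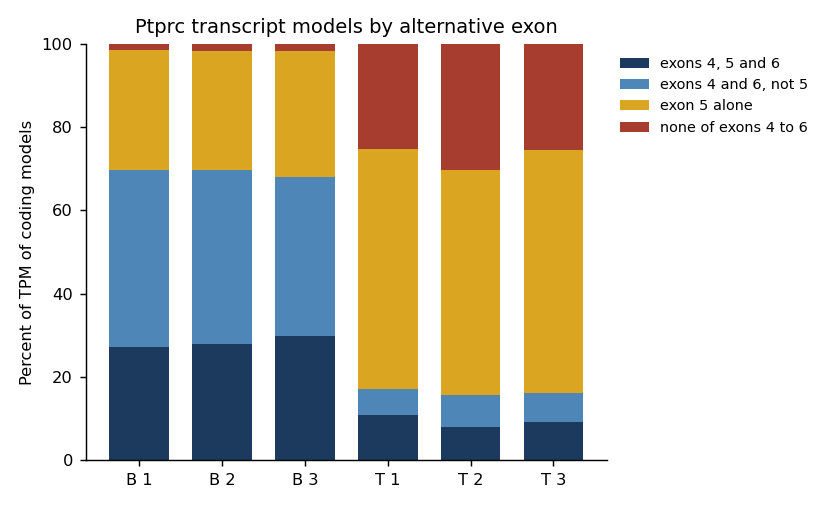
Share of the TPM of coding Ptprc transcripts, in percent, in each of the 6 libraries by the combination of exons A, B and C that the transcript holds. Transcripts with exon A made up most of the B cell total, and those with exon B alone or none of the 3 exons most of the T cell total.

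Differences in the leading transcript were otherwise uncommon. At least 100 estimated counts in each library were found at 7637 genes, 7067 of them with several transcripts. Of the 7637, 5079 had 1 leading transcript in all libraries of each cell type. These include genes with a single transcript, which have 1 by definition. For 370 of the 5079 it differed between B and T cells. A change of at least 50 percentage points in its share was found at 10 genes. Besides Cd247, these included Cry1, a repressor of the circadian clock, where 1 coding transcript took 79.8, 60.7 and 63.8% in B cells and had no reads assigned in T cells. Ms4a1 was another, with 83.1, 85.2 and 81.4% in its main coding transcript in B cells and 61.5, 68.4 and 80.5% in a retained-intron transcript in T cells, where the gene was at 21.2, 16 and 9.91 CPM. Sla2, an adaptor that dampens receptor signaling, had its leading transcript at 89.1, 97 and 100% in B cells and at 27.8, 44.4 and 37.5% in T cells.

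Transcription factors were listed by the lineage they are known from, so the direction of most calls was largely fixed in advance. Of 20 factors known from B cells, 16 were called higher in B cells and 3 higher in T cells, with a median difference of 3.73. Pax5, which fixes B cell identity, was at 1070, 1130 and 1060 CPM in B cells and at 6.88, 6.13 and 2.31 CPM in T cells (7.92 ± 0.24). Bcl11a (7.71 ± 0.22), the Ets factor Spib (6.17 ± 0.14), Irf8 (5.45 ± 0.10), Ebf1 (5.44 ± 0.21), Tcf4 (4.41 ± 0.08) and Pou2f2, the octamer-binding factor Oct-2 (3.10 ± 0.06), also differed by over 8-fold. Bach2, a repressor that keeps lymphocytes from effector differentiation, was slightly higher in T cells (-0.39 ± 0.05), and Klf3 clearly so (-1.99 ± 0.06). Foxo1 was at 548, 593 and 516 CPM against 540, 604 and 570 CPM, with overlapping values and an interval of -0.19 to 0.09.

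Of 20 factors known from T cells, 17 were called higher in T cells and 1 higher in B cells (median -2.39). Tcf7, which encodes TCF-1, was at 2150, 2040 and 2040 CPM in T cells and at 3.26, 4.97 and 6.44 CPM in B cells (-8.71 ± 0.19), and its relative Lef1 differed by -5.59 ± 0.09. Bcl11b and Tox differed by -9.67 ± 0.21 and -6.10 ± 0.13. Satb1 was higher in T cells (-2.35 ± 0.06) from a B cell level of 643 to 742 CPM. Zbtb7b (ThPOK), the factor of the CD4 lineage, was at 23.4, 26.3 and 24.2 CPM in B cells and at 23.7, 24.5 and 21.7 CPM in T cells and was not called (0.09 ± 0.09). Runx3, known from CD8 and cytotoxic cells, was at 224, 201 and 235 CPM in T cells against 39.1, 44.2 and 39.1 CPM (-2.43 ± 0.08), beside the CD8 transcripts described above, whose part in this was not tested. Runx1 was higher in B cells (0.52 ± 0.06).

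Promoters were searched for short motifs of such factors, on both strands, in a window from 250 bases before to 50 after the gene start, from RefSeq sequence of GRCm38.p6. Of 15826 genes tested, 10888 matched a promoter, and 229 of the 572 genes at least 16-fold higher in B cells and 238 of the 507 at least 16-fold higher in T cells did. The EBF1 palindrome, TCCC and GGGA with 2 bases between them, was in 8 of those 229 (3.49%) and 2 of those 238 (0.84%), against 1.2% of all genes tested and 1.06% of all 27025 promoters. The octamer ATGCAAAT was in 9 (3.93%) and 5 (2.1%), against 1.66% of genes tested and 1.97% of all promoters, and the Ets motif GAGGAAGT in 21 (9.17%) and 12 (5.04%), against 3.7% and 3.69%. The LEF1 and TCF7 motif ATCAAAG was in 3.06% and 2.94%, against 3.32% and 4.29%, and the E-box CAGGTG in 26.2% and 29%, against 21% and 22.6%. These matches describe letters in a window and were given no test. The windows of Cd22 (minus strand, chr7:30879029-30879127) and Blnk (minus strand, chr19:40994294-40994401), chosen after their values were seen, show the EBF1 palindrome 49 bases and the octamer, on the other strand, 130 bases before the start, in capitals:
Cd22 promoter: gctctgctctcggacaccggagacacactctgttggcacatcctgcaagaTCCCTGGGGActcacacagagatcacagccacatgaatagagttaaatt
Blnk promoter: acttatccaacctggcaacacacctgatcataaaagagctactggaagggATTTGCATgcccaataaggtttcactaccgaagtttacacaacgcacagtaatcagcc

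Genes of antigen presentation by MHC class II, which serves CD4+ T cells, were mostly higher in B cells, and those of class I, which serves CD8+ T cells, mostly higher in T cells. Of 15 genes of the MHC class II pathway, 13 were called higher in B cells, all by at least 2-fold, 1 higher in T cells and 1 was not called (median 4.55). H2-Aa was at 577, 650 and 756 CPM in B cells and at 15.8, 7.59 and 8.07 CPM in T cells (6.08 ± 0.21). H2-Ab1 and H2-Eb1, the beta chains, differed by 5.97 ± 0.20 and 5.72 ± 0.14. Ciita, the master activator of these genes, was at 146, 132 and 161 CPM against 4.8, 3.8 and 2.97 CPM (5.33 ± 0.14). March1, a ubiquitin ligase that removes class II from the surface, differed by 7.39 ± 0.23, and H2-Ob, a chain of the peptide-loading modulator DO, by 3.35 ± 0.08 from a T cell level of 51.1 to 53.0 CPM. The general factors Rfxank (0.14 ± 0.10, not called) and Rfxap (-0.67 ± 0.19) did not follow.

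Of 12 class I pathway genes, 10 were called higher in T cells and 1 higher in B cells, with a median of -0.84. H2-K1 was at 1800, 1580 and 1590 CPM in T cells and at 531, 589 and 550 CPM in B cells (-1.57 ± 0.07), and H2-D1 differed by -0.92 ± 0.07. The light chain B2m was at 2860, 2970 and 3020 CPM against 1680, 1660 and 1710 CPM (-0.81 ± 0.05). The immunoproteasome subunits Psmb8 and Psmb9 and the peptide transporter Tap2 were higher in T cells (-0.86, -1.31 and -1.17). Erap1, which trims peptides, was higher in B cells (0.32 ± 0.06), a call that was lost when counts were rescaled for transcript length (0.09).

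The class II genes share a promoter element known as the Y box, an inverted CCAAT sequence. The letters GATTGG were found on either strand in the promoters of 9 of 10 matched class II pathway genes (90.0%), against 23% of genes tested and 18.2% of all promoters. The 10 include Rfx5 and Rfxank, which code for factors of these promoters. The same letters were in 6 of 10 class I pathway promoters (60%), 12 of 14 of cholesterol synthesis and uptake (85.7%) and 13 of 18 of cell cycle genes (72.2%), and in 18.8% and 18.1% of the promoters of genes at least 16-fold higher in B and in T cells. The letters are shown in capitals for H2-Aa (minus strand, chr17:34287824-34287922), H2-Eb1 (plus strand, chr17:34305757-34305862), where it occurs on both strands, and the cholesterol synthesis gene Cyp51 (minus strand, chr5:4104698-4104776), all chosen after their values were seen, starting 49, 60 and 29 bases before the gene start:
H2-Aa promoter: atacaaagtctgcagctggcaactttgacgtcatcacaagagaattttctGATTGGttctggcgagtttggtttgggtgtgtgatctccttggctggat
H2-Eb1 promoter: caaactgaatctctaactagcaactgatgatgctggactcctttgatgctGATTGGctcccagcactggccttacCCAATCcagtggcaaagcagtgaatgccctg
Cyp51 promoter: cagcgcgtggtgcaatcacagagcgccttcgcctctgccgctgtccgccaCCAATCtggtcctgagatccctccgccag

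Genes of circulation and homing were mostly higher in T cells. Of 28 homing and egress receptors and their regulators, 20 were called higher in T cells and 4 higher in B cells (median -1.44). Cxcr5, which guides cells into follicles, was at 278, 303 and 273 CPM in B cells and at 8.31, 10 and 7.74 CPM in T cells (5.05 ± 0.10), and Ccr6 differed by 5.15 ± 0.19. S1pr3 had 3 counts in the T libraries together, and its ratio of B to T levels was 120 (95% counting interval 41.1 to 585). S1pr1, the receptor that lets lymphocytes leave lymph nodes, was at 936, 1030 and 984 CPM in T cells and at 251, 315 and 277 CPM in B cells (-1.81 ± 0.08). Selplg, the ligand of P-selectin, differed by -3.94 ± 0.07. The integrin chains Itga6 (-3.05 ± 0.08), Itgae (-5.09 ± 0.17) and Itgb7 (-2.36 ± 0.09) were higher in T cells, beside the CD8 transcripts described above. The oxysterol receptor Gpr183 (-0.09 ± 0.09) and the G protein subunit Gnai2 (-0.12 ± 0.06) were not called, the latter becoming so without B replicate 2 (-0.16).

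Cytokine receptor genes had members called in both directions. Of 28 cytokine receptor genes, 9 were higher in B cells and 15 higher in T cells (median -0.42). Over all genes tested the shares were 32.9% and 30.7%, so the count in the B direction was near its share. Il7r, the receptor that sustains resting T cells, was at 3250, 3430 and 3460 CPM in T cells and at 37.1, 46.1 and 28.3 CPM in B cells (-6.51 ± 0.16). Il2rb (-4.81 ± 0.10), Ifngr1 (-3.66 ± 0.09), Il6ra (-2.55 ± 0.07) and Il6st (-2.63 ± 0.10) were higher in T cells. The partner chain of Ifngr1, Ifngr2, was higher in B cells (0.75 ± 0.07), as were Il5ra (3.45 ± 0.12), Il9r (4.0 ± 0.20), Il10ra (2.24 ± 0.14) and Il21r (0.79 ± 0.07). Ifnar2, a chain of the receptor for IFNb, was at 51.8, 60.7 and 51.7 CPM against 55.0, 66.2 and 57.6 CPM and was not called (-0.12 ± 0.09).

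All 8 Gimap genes, a cluster of GTPases known for lymphocyte survival, were called higher in T cells, with a median of -1.39 and 5 of the 8 at 2-fold or more. Gimap3 was at 672, 653 and 636 CPM in T cells and at 105, 113 and 104 CPM in B cells (-2.61 ± 0.06), and Gimap6 at 573, 574 and 571 CPM against 348, 390 and 363 CPM (-0.64 ± 0.05). In the Bcl2 family, 6 of 14 were higher in B cells, 3 higher in T cells and 5 not called, against 32.9% and 30.7% of all genes. Bcl2a1d (3.96 ± 0.15), a survival protein, and the pro-apoptotic Bid (2.46 ± 0.08) and Bmf (2.22 ± 0.20) were higher in B cells, and Bcl2l11 (Bim), which limits resting lymphocytes, was at 170, 193 and 160 CPM in B cells and at 236, 261 and 285 CPM in T cells (-0.58 ± 0.08). Mcl1 overlapped at 594, 635 and 570 CPM against 601, 574 and 557 CPM, with an interval of -0.07 to 0.18. Without B replicate 2, 5 members in place of 3 were called higher in T cells.

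Genes that mark quiescence leaned to T cells. Of 26 genes of resting lymphocytes and targets of Foxo factors, 21 were called higher in T cells and 3 higher in B cells (median -0.93). Tob1, an inhibitor of proliferation, was at 176, 178 and 164 CPM in T cells and at 18.9, 21.9 and 18.2 CPM in B cells (-3.13 ± 0.08). Pik3ip1, which restrains phosphoinositide 3-kinase, was at 247, 247 and 245 CPM against 55.4, 70.1 and 59.7 CPM (-2.0 ± 0.08), and Rictor, of the mTORC2 complex, differed by -1.21 ± 0.05. Bcl6 (1.02 ± 0.12) and Foxp1 (0.44 ± 0.05) were higher in B cells. Il7r, S1pr1 and Klf3 belong to this list as well.

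Proliferation genes were mostly higher in B cells. Of 20 cell cycle genes, 14 were called higher in B cells and 0 higher in T cells by edgeR, against 30.7% of all genes tested in that direction, with a median of 0.91. By an unadjusted p below 0.05 and by DESeq2 the count in the T direction was 0 as well. Mki67 was at 124, 86.6 and 83.1 CPM in B cells and at 28, 27.4 and 29.2 CPM in T cells (1.79 ± 0.15), and Top2a differed by 1.86 ± 0.13. B replicate 1 was the highest for both. Pcna, at 141, 144 and 129 CPM against 92.4, 86.2 and 95.4 CPM, differed by 0.60 ± 0.07, and Mcm2 and Birc5 were not called (-0.09 ± 0.10 and 0.02 ± 0.14). Plasma cell markers had the same direction, 5 of 5 tested being higher in B cells with sums of 175 to 191 CPM against 42.7 to 53.3 CPM. Tnfrsf17 was at 0 counts in B cells. Whether these markers vary together with the cell cycle genes was not tested. The part of plasma cells in the difference was not tested either.

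Immediate early genes, which respond to receptor signals and to handling, split by member, with 9 of 19 higher in B cells, 6 higher in T cells and a median of 0.28. Shares of all genes tested were 32.9% in the B and 30.7% in the T direction. Egr3 was at 115, 100 and 115 CPM in B cells and at 4.28, 3.37 and 4.86 CPM in T cells (4.69 ± 0.13), Nr4a1 differed by 2.07 ± 0.15 and Egr1 by 0.71 ± 0.09. Dusp1, a phosphatase of MAP kinases, was at 45.4, 47.3 and 52.5 CPM in T cells and at 6.59, 9.5 and 6.08 CPM in B cells (-2.72 ± 0.15), and Fosl2 differed by -4.05 ± 0.21. Fos itself was at 0.48 to 0.863 CPM in the 6 libraries and was not called.

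Most genes of innate sensing were higher in B cells. Of 22 genes of the Toll-like receptor (TLR) pathway, 16 were called higher in B cells, 14 of them by at least 2-fold, and 2 higher in T cells (median 1.67). Cd180, a TLR-like receptor that B cells carry, was at 813, 767 and 812 CPM in B cells and at 4.54, 5.01 and 4.53 CPM in T cells (7.41 ± 0.08), and its partner Ly86 differed by 6.72 ± 0.17. The nucleic acid sensors Tlr9 and Tlr7 differed by 6.90 ± 0.21 and 4.35 ± 0.14, and Unc93b1, which carries them to endosomes, by 5.60 ± 0.10. Tlr12 was higher in T cells (-4.10 ± 0.17). The shared signaling genes Myd88, Irak4 and Traf6 were not called (-0.11 ± 0.13, 0.02 ± 0.09 and -0.02 ± 0.06).

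Type I interferon-stimulated genes had no common direction. Among 37 tested, 11 were called higher in B cells, 13 higher in T cells and 13 not called, with a median of -0.08. Ifit2 was at 139, 136 and 122 CPM in T cells and at 25.1, 14.8 and 13.2 CPM in B cells (-2.91 ± 0.20), and Ifit1 and Ifi44 were also higher in T cells (-2.25 ± 0.30 and -1.80 ± 0.20). Oasl1 (2.51 ± 0.21), Dhx58 (2.48 ± 0.17) and Mx2 (3.07 ± 0.42) were higher in B cells, at no more than 13.4 CPM. Stat2 differed by 0.91 ± 0.12, and Irf9 and Ddx58 were not called. B replicate 1 had the highest B cell value for Ifit2, Ifit1, Ifi44, Mx2 and Stat2.

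Metabolic genes differed by pathway. Of 20 cholesterol synthesis and uptake genes, 15 were called higher in B cells and 0 higher in T cells by edgeR (median 1.00). The latter count was also 0 by an unadjusted p below 0.05 and by DESeq2, though without B replicate 2 Srebf1 was called higher in T cells (-0.31). Cyp51 was at 128, 121 and 125 CPM in B cells and at 29.5, 26.7 and 25.2 CPM in T cells (2.21 ± 0.08). Sqle, an enzyme of cholesterol synthesis, differed by 2.22 ± 0.09. Of 20 glycolysis genes, 7 were higher in B cells and 11 higher in T cells. Of the hexokinase genes, Hk2 was higher in B cells (3.72 ± 0.17) and Hk1 in T cells (-1.51 ± 0.09). Ldha was at 289, 246 and 269 CPM in T cells and at 138, 147 and 133 CPM in B cells (-0.94 ± 0.07). Ldhb, at 18.0, 11.3 and 14.3 CPM in T cells, had 3 counts in the B libraries together, a ratio of T to B levels of 461 (95% counting interval 157 to 2240). Pdk1, which diverts pyruvate from mitochondria, was higher in T cells (-2.52 ± 0.08).

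Respiratory chain genes were close in the 2 cell types. Of 38 oxidative phosphorylation subunits, 34 had a 95% interval within 2-fold, against 48.9% of all genes, and the median was 0.05. Calls were 14 higher in B cells and 7 higher in T cells, and the latter count depended on single libraries, being 4 without B replicate 1 or B replicate 3 and 14 without B replicate 2. Ndufs1 of complex I differed by 0.59 ± 0.07 and Cox5a of complex IV by 0.85 ± 0.10. Atp5b was at 575, 706 and 566 CPM against 703, 676 and 722 CPM and was not called (-0.19 ± 0.08), though it was without B replicate 2 (-0.29) and after rescaling for transcript length (-0.35). Mitochondrially encoded transcripts took 3.95 to 4.12% of counts in B and 4.56 to 4.83% in T libraries.

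Ribosomal protein genes leaned to T cells by small amounts. Of 46, 34 were called higher in T cells and 1 higher in B cells (median -0.37), 38 with an interval within 2-fold. Rpl38 was at 537, 530 and 556 CPM in T cells and at 242, 302 and 265 CPM in B cells (-1.01 ± 0.08), and Rps14 differed by -1.52 ± 0.10. Together these genes took 5.56 to 5.82% of counts in T libraries and 3.81 to 4.79% in B libraries. Several, such as Rps3 and Rpl24, share exon sequence with other annotated genes, and how the counting divided such reads between them is uncertain.

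The 30 genes chosen as shared lymphocyte genes were called in most cases, 8 higher in B cells and 18 higher in T cells, but by small amounts, 20 with an interval within 2-fold. Lcp1, an actin-bundling protein, was at 1430, 1420 and 1370 CPM in B cells and at 1370, 1360 and 1530 CPM in T cells (95% interval -0.14 to 0.11). Was and Cd48 likewise overlapped (-0.05 ± 0.08 and -0.08 ± 0.07). Ets1 (-1.37 ± 0.06), Tmsb10 (-2.55 ± 0.10) and Myb (-1.68 ± 0.12) were higher in T cells, and Ptpn6 (2.58 ± 0.07), Cd37 (2.34 ± 0.07) and Ikzf3 (0.74 ± 0.05) in B cells.

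**Figure D4:**
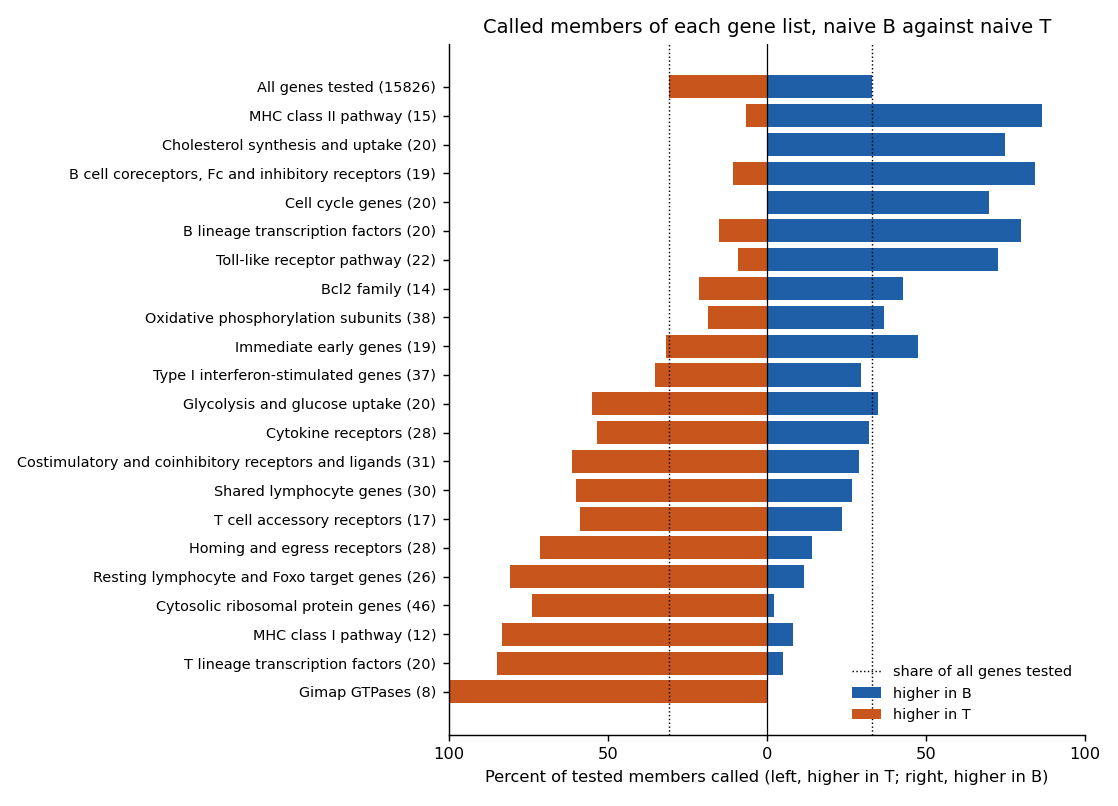
Percent of the tested members of each gene list that were called higher in B cells (bars to the right) or higher in T cells (bars to the left), with the number tested in parentheses and dotted lines at the 32.9% and 30.7% of all genes tested. MHC class II and cholesterol genes lay to the right and Gimap genes and T lineage factors to the left, and interferon-stimulated genes lay near the lines on both sides.

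Markers of further cell types were low. Of 15 monocyte, macrophage and neutrophil markers, 8 passed the filter, with sums of 33.7 to 42.7 CPM in B and 21.2 to 34.3 CPM in T libraries. The 3 highest were Adgre1 (3.86 ± 0.27), Cd68 (0.44 ± 0.24, not called unless T replicate 1 was left out, 0.73) and Itgam (-0.65 ± 0.18). Of the 8, 2 were called in each direction. Dendritic cell markers (1 of 5 tested called higher in B cells, 2 higher in T cells) summed to 38.5 to 46.9 and 221 to 243 CPM, most of it from Ccr9, which T cells carry too. Red cell and platelet markers, with 1 of 2 tested called higher in T cells in each list, summed to at most 5.32 and 5.52 CPM. Stromal and endothelial markers, at 231 to 237 and 270 to 294 CPM, were nearly all Pecam1 (-0.28 ± 0.05), which lymphocytes also express. Of 8 regulatory T cell markers, 7 were higher in T cells, with Ctla4 at 77.6, 107 and 88.1 CPM against 4.17, 4.87 and 5.53 CPM, and Il2ra was higher in B cells at 77.8, 81.7 and 67.6 CPM against 43.6, 38.3 and 35.2 CPM (0.97 ± 0.10). The part of these cells in the differences above was not tested.

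Whether the contrast of B and T cells was particular to unimmunized mice was asked by adding the 6 unstimulated libraries from mice immunized with a myelin peptide to induce EAE and testing the interaction of cell type and immunization over all 12. Of 17316 genes tested, 2889 (16.7%) had a different B minus T value, 1692 (9.77%) larger and 1197 (6.91%) smaller in naive mice. Larger and smaller refer to the signed value and not to the size of the gap. A gene whose excess in T cells was wider in naive mice thus counts as smaller. With the replicate number as a block, the count was 1735 genes. Among the 5 genes of smallest p with a smaller value, the CD8 genes had the interactions of largest size. In values scaled over all 60 libraries, Cd8a was at 284, 275 and 342 CPM in naive T cells and at 6.17, 3.45 and 3.69 CPM in EAE T cells. Cd8b1 was at 627, 629 and 747 CPM against 16.9, 24.3 and 16.3 CPM. The interactions were -5.82 ± 0.35 and -5.24 ± 0.37. The 4 stimulated naive T cell arms, which are separate libraries, also held Cd8a at means of 236 to 254 CPM. Klrd1 in T cells was at 130, 167 and 159 CPM in naive and 28, 12.4 and 18.2 CPM in EAE mice (interaction -2.06 ± 0.54). Cd4 and Cd3e were not called by this interaction test (0.73 ± 0.60, adjusted p = 0.452, and 1.00 ± 0.50, adjusted p = 0.198), which does not show equal levels. In T cells, Cd4 was at 481 to 575 CPM in naive and 687 to 757 CPM in EAE mice. Cd3e was at 420 to 443 and 446 to 526 CPM. Ddx3y was at 164 to 230 CPM in the B libraries of EAE mice and at 0.319 to 0.766 CPM in the T libraries. Immunization and the makeup of the T cell libraries cannot be told apart.

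Cd274, also among the genes of smallest p in this interaction, was at 49.6, 37.3 and 55.2 CPM in naive T cells and at 522, 652 and 564 CPM in EAE T cells, with B cells at 47.0 to 49.1 and 49.8 to 73.9 CPM (interaction 3.33 ± 0.23). Prdm1, the effector factor Blimp-1, was higher in B than in T cells in naive mice (1.57 ± 0.18) and lower in EAE mice (-1.73 ± 0.17). Its levels were 35.7 ± 0.617 and 18.5 ± 3.04 CPM (SD, n = 3) in B cells of naive and EAE mice, and 10.7 to 14.9 and 53.8 to 79.5 CPM in T cells. Naive against EAE mice within 1 cell type was not tested. Gbp5, an interferon-induced GTPase, changed likewise from 0.74 ± 0.19 to -2.48 ± 0.19. Ccr9 was at 187, 189 and 212 CPM in naive T cells and at 20.9, 22.6 and 21.1 CPM in EAE T cells, close to the B cell levels of 17.1 to 22.2 and 18.2 to 22.1 CPM. Dnajc15 and Bend4 in T cells were also lower in EAE mice. For Btla, the excess in B cells was larger in naive mice, 3.38 ± 0.12 against 2.16 ± 0.11 in EAE mice (interaction 1.22 ± 0.16, edgeR adjusted p = 0.000343). T cell levels of Btla were 57.8, 59.9 and 65.8 CPM in naive and 113, 132 and 124 CPM in EAE mice. Tnfrsf14 differed by -1.40 ± 0.15 and -2.15 ± 0.15 (interaction 0.75 ± 0.21, adjusted p = 0.03).

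**Figure D5:**
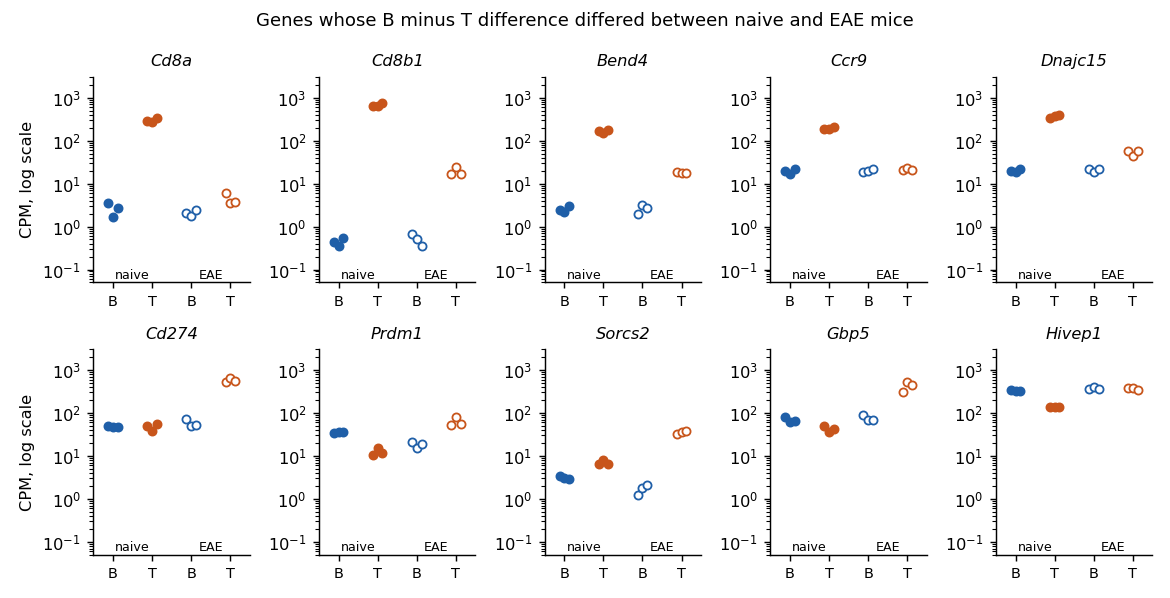
Level in each of the 12 unstimulated libraries, in CPM on a log axis, of the 5 genes of smallest interaction p in each direction, with filled points for naive and open points for EAE mice. Cd8a, Cd8b1, Bend4, Ccr9 and Dnajc15 were highest in naive T cells, and Cd274, Prdm1, Sorcs2 and Gbp5 were highest in EAE T cells.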

How the data were processed

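RNA was sequenced on an Illumina platform. The authors quantified transcripts with Salmon on GRCm38 (no version, library kit or strand is stated in the sources used here) and deposited estimated counts, TPM and effective lengths per transcript, in 67 tables for 60 libraries. Here 7 tables of 6 libraries were used for the main comparison. The 2 runs of T replicate 3 (chi-square per degree of freedom 1.503, against 4.58 to 17.44 between replicates) were summed. Transcripts in both cell types' tables (116192) were summed by GENCODE M21 to 35312 genes, and 749 had no gene there (0.317 to 0.334% of counts in B, 0.755 to 0.775% in T libraries). Counts were rounded and tested with edgeR 4.0.16 (R 4.3.3; TMM, filterByExpr minimum 10, quasi-likelihood F test, Benjamini-Hochberg). The interaction was fitted over 12 libraries. SE is the difference divided by the root of F. Alternatives changed normalization, filter, tool (DESeq2 1.42.0), replicate block, length, transcript set and libraries, and B replicate 3 alone was added after seeing the data.

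The members and the 43 gene lists (631 genes) were chosen with earlier results of these data known. Genes named were markers, Btla and Tnfrsf14, the 10 largest and 10 most abundant in each direction, all family members, up to 6 called members in each direction by p and 4 not called of each longer list, 5 of the interaction in each direction, 8 isoform genes and Ptprc, and the 3 highest markers of other cell types. Ebf1, H2-Aa and Rfx5 were named after their values were seen. Aldoa, Atp5o, Ier2, Isg15 and Xcr1 were not analysed here. Some genes of these lists are not reported here.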

Additional observations from a re-analysis of the deposited data

Results flagged for a closer look

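The B minus T difference itself differed between naive and EAE mice at 2889 of 17316 genes by the edgeR interaction test, and at 1735 genes with the replicate number as a block. Among the 10 genes given in the report, the interaction was positive, so that B minus T was larger in naive mice, for Cd274 (3.33), Prdm1 (3.30), Sorcs2 (3.24), Gbp5 (3.23) and Hivep1 (1.28). It was negative for Cd8a (-5.82), Cd8b1 (-5.24), Bend4 (-3.25), Ccr9 (-3.18) and Dnajc15 (-2.83).

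Transcripts listed in the tables of 1 cell type alone were outside the comparison. They took at most 0.111% of the counts of a B library and 0.037% of those of a T library.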

How the results depend on the processing

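Of 7298 values of 407 named genes under the alternatives, 7181 stayed called in the same direction or stayed uncalled. A further 62 (23 genes) were no longer called, 53 (29 genes) became called and 2 reversed. A change of sign was counted as reversed only where the gene was called in the main fit or the alternative. Kdm5d turned to -0.15 with B replicate 3 alone and Sdhc to 0.50 with counts rescaled for effective length. The share of genes called was 56.0% after that rescaling, and of the main calls 8510 were called in the same direction there, 9268 with DESeq2 and 8062 with B replicate 3 alone. Among list medians, that of the 3 stromal markers tested turned to 3.26 with T replicate 3 from its first run, 3.40 with B replicate 3 alone and 0.38 without T replicate 3, with leave-one-out values from -0.32 to 0.38. That of the Tec kinases turned to 1.32 with no filter, 0.94 with DESeq2 and 0.69 with DESeq2 and the block, where the number of members tested differs. The count of 10 major isoform differences was 50 at 30 percentage points, 1 at 70 and 21 at 20 estimated counts, and with shares of estimated counts it was 10, 6 of them shared. The cause was not tested.

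Deviations of same-numbered B and T libraries from their group means had correlations of 0.074, -0.01 and 0.047. Those of different-numbered libraries ran from -0.075 to 0.04. These values were given no test, so they cannot show whether replicate numbers pair the libraries. With the replicate number as a block, 61.6% of genes were called in place of 63.7%, and the interaction gave 1735 genes in place of 2889. Depth limits genes of few counts: 3 counts over a group correspond to 0.0305 CPM in B and 0.0735 CPM in T libraries.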
